A study of Homo sapiens with 12 samples.

Results

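The genes described here are the 8 members of the MYC, MAX and MXD transcription factor network named MYC, MAX, MXD1, MXD3, MXD4, MXI1, MNT and MLX, taken by symbol from tables of 24180 gene symbols. All 8 symbols were in every table and all 8 passed the filter on low counts, so none is left out of a count below. They were measured by RNA-seq in 143B, a human osteosarcoma cell line, labelled wild type, grown in DMEM with fetal bovine serum, in 12 libraries that form 4 groups of 3. The titles give only NC, BSG, M-BSG and M-BSG-Hot with a replicate number. These were taken here, by their names, as the study's Control, BSG, 5-MNP-BSG and 5-MNP-BSG (+) groups. Every library, NC included, carries the same treatment text, which names the magnetic system 5-MNP-BSG and an alternating magnetic field, so the labels do not say group by group which agent or field was applied, at which dose or for how long. The labels name 1 cell line and do not state that the libraries of any group were separate cultures. The p-values below therefore measure the spread between these libraries, which may be technical. In bulk RNA, fewer cells of a kind and less RNA per cell cannot be told apart.

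MYC is a basic helix-loop-helix leucine zipper factor that binds E-box DNA as a dimer with MAX and raises transcription of genes for ribosome production, nucleotide synthesis and cell-cycle entry. MAX also pairs with the MXD proteins, with MXI1 and with MNT, and those dimers occupy the same E-boxes and recruit the SIN3 and histone deacetylase corepressor, so that the balance between MYC and its antagonists sets the output of shared target genes. MLX is a related dimer partner that joins MXD1, MXD4 and MNT to a parallel branch with the glucose-responsive Mondo factors. In osteosarcoma the MYC locus is often gained, and MYC messenger RNA and protein both turn over quickly.

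The libraries held between 34434993 and 38163152 counts. Ribosomal protein genes took between 7.58% and 11.4% of the counts, highest in BSG 1 (11.4%), M-BSG 1 (10.0%) and M-BSG-Hot 3 (9.92%), and in these 3 libraries long genes were also low relative to short ones. The log2 difference along the fitted length trend, between genes of 9790 bases and genes of 1394 bases, was -0.56 in BSG 1, -0.26 in M-BSG 1 and -0.20 in M-BSG-Hot 3, against -0.05 to 0.29 in the other 9 libraries. Of 9 mesenchymal and bone markers, 8 were measured and detected (COL1A2 was not analysed here). Their summed level was 4013 to 4335 CPM (TMM-scaled read counts relative to library size) in NC, 4301 to 5143 in BSG, 4129 to 4560 in M-BSG and 4353 to 5042 in M-BSG-Hot, led by VIM at 3483 to 4641 CPM, with RUNX2 at 10.2 to 16.9 CPM and COL1A1 at 5.23 to 8.91 CPM. Of 5 epithelial and 4 measured immune markers, 4 and 3 stayed under 1 CPM in every library, and the summed level of 5 endothelial markers was 1.18 to 2.87 CPM. CDH1 stayed at or below 0.170 CPM in every library, EPCAM lay between 13.7 and 21.9 CPM and CD68 between 120 and 165 CPM. Of the 8 bone markers, edgeR called 1 against NC, TWIST1, a mesenchymal transcription factor, higher in BSG (log2 fold change 0.75) and M-BSG (0.46, not called without NC 2). Over all genes tested, 11.7% were called in BSG and 6.35% in M-BSG, so 1 of 8 in BSG is near that share. TWIST1 was lower in M-BSG-Hot than in BSG (-0.53, adjusted p = 0.0152), a call that held under 16 of 23 other settings and was lost with the length trend removed, only the 2 groups compared, or without M-BSG-Hot 2, M-BSG-Hot 3 or any 1 BSG library.

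All 8 genes were expressed, at levels that spanned more than an order of magnitude per unit of length. By the mean of the deposited FPKM over the 12 libraries, which is per length and so allows genes to be set side by side, MAX stood highest at 32.3, followed by MLX at 19.0, MYC at 9.35, MXI1 at 7.97, MXD1 at 5.00, MNT at 2.97, MXD4 at 2.86 and MXD3 at 2.04. MNT and MXD4 lay within each other's range across libraries, 2.08 to 3.99 for MNT and 2.49 to 3.36 for MXD4. MYC, from 6.36 to 12.6 FPKM, and MXI1, from 6.74 to 9.24 FPKM, also overlapped. MAX, the shared partner, had the highest FPKM in each of the 12 libraries.

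**Figure D1:**
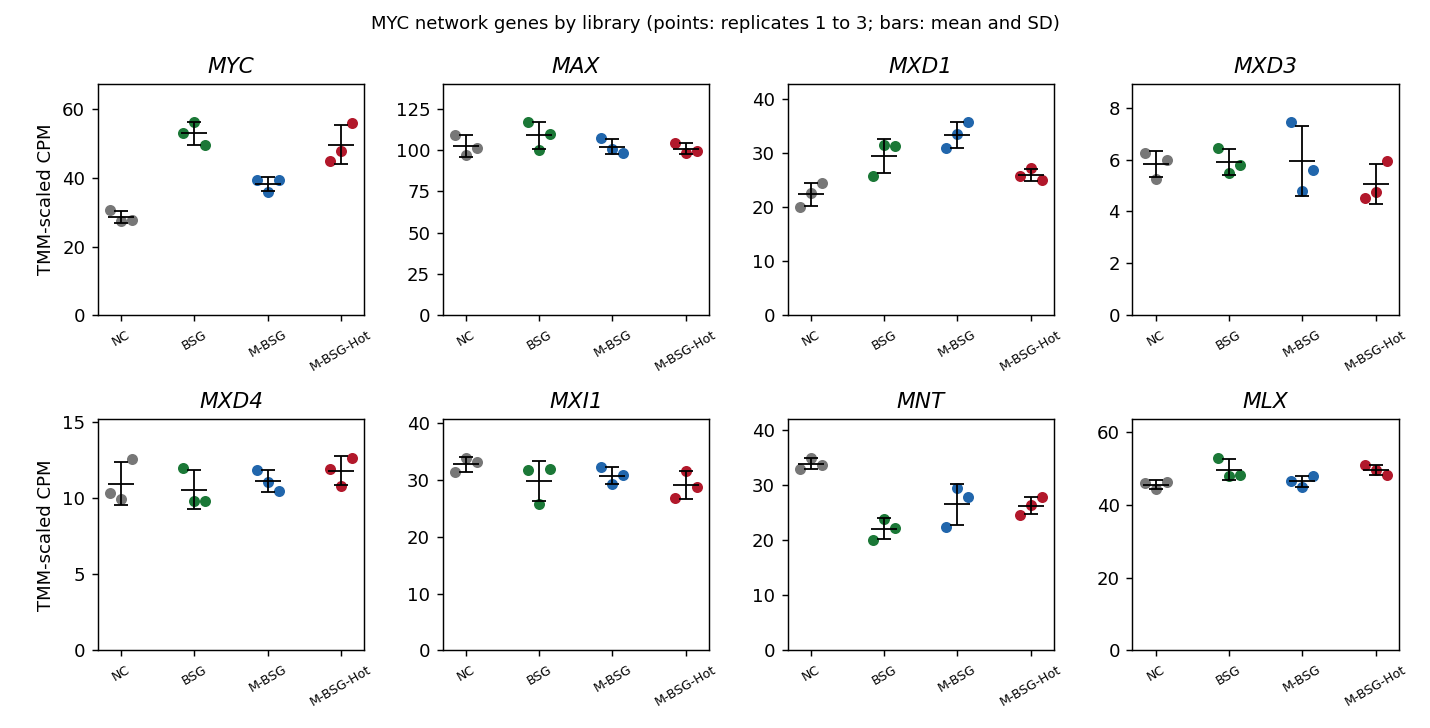
Levels of the 8 network genes in TMM-scaled CPM (linear axes from 0) in NC, BSG, M-BSG and M-BSG-Hot. Points are the 3 libraries of a group and bars the mean and SD. MYC lay at or below 30.7 in NC and at or above 36.0 in every other library, MNT at or above 33.0 in NC and at or below 29.4 elsewhere, while the ranges of MAX, MXD3, MXD4 and MXI1 in the other groups each overlapped that of NC.

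MYC was higher than in NC in all 3 other groups, by 1.85-fold in BSG, 1.34-fold in M-BSG and 1.74-fold in M-BSG-Hot. The MYC level was 30.7, 27.6 and 27.7 CPM in the NC libraries. It was 53.2, 56.3 and 49.7 CPM in BSG, 39.4, 36.0 and 39.4 CPM in M-BSG, and 45.1, 48.0 and 56.2 CPM in M-BSG-Hot. Every library outside NC exceeded every NC library, and M-BSG lay between NC and the other 2 groups without overlapping either. The group means were 28.7 ± 1.78, 53.1 ± 3.29, 38.3 ± 1.94 and 49.7 ± 5.74 CPM (SD, n = 3) in that order of groups. In edgeR's quasi-likelihood test with Benjamini-Hochberg adjustment over all 15407 genes tested, the MYC log2 fold change against NC was 0.89 (SE 0.0934, adjusted p = 3.19e-05) in BSG, 0.42 (SE 0.0934, adjusted p = 0.0149) in M-BSG and 0.80 (SE 0.0934, adjusted p = 0.000161) in M-BSG-Hot. These comparisons share the NC libraries. The calls for BSG and M-BSG-Hot held under all 23 other settings tried, with the MYC log2 fold change between 0.81 and 0.94 and between 0.70 and 0.86. The call for M-BSG failed once M-BSG 3 (adjusted p = 0.0671), NC 2 (0.0814) or NC 3 (0.0786) was dropped, with the MYC log2 fold change between 0.39 and 0.40 in those fits.

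Among the 3 groups outside NC, the order of MYC levels was BSG, M-BSG-Hot and M-BSG, and none of the steps passed the edgeR threshold. For M-BSG against BSG, the MYC log2 difference was -0.47 (SE 0.0925, adjusted p = 0.0871), and the 2 groups did not overlap. M-BSG-Hot was above M-BSG by 0.38 (SE 0.0926, adjusted p = 0.110), again without overlap. The share of all genes without overlap was not counted between groups outside NC, so the lack of overlap is a description only. BSG and M-BSG-Hot overlapped, with a MYC difference of -0.09 (SE 0.0920, adjusted p = 0.683). The step from BSG to M-BSG passed under DESeq2, with BSG 1, M-BSG 1 and M-BSG-Hot 3 all dropped, with M-BSG-Hot 3 alone dropped, and once the length trend was removed, with MYC adjusted p-values from 0.00111 to 0.0418. The step from M-BSG to M-BSG-Hot passed for MYC under DESeq2 (adjusted p = 0.0135) and with the length trend removed (0.0269), and under no other setting tried.

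MAX, the obligate partner of MYC, was not called in any comparison. Its mean level was 102 ± 6.41 CPM in NC, 109 ± 8.39 in BSG, 102 ± 4.51 in M-BSG and 101 ± 3.27 in M-BSG-Hot (SD, n = 3), and the 4 groups overlapped. The largest MAX log2 difference in the 6 comparisons was -0.11 (SE 0.0777, adjusted p = 0.546, edgeR), for M-BSG-Hot against BSG. Within a library, the ratio of MAX to MYC FPKM was 4.96 to 5.14 in NC, 2.51 to 3.11 in BSG, 3.51 to 3.94 in M-BSG and 2.50 to 3.27 in M-BSG-Hot. MAX transcript thus exceeded MYC transcript per length in every library, and the excess was largest in NC.

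MXD1, an antagonist that pairs with MAX and is known for its rise during differentiation, was higher than in NC in BSG and M-BSG. Its level was 20.1, 22.5 and 24.4 CPM in NC, 25.7, 31.4 and 31.2 CPM in BSG, 30.9, 33.4 and 35.7 CPM in M-BSG, and 25.7, 27.2 and 25.0 CPM in M-BSG-Hot. All libraries outside NC were above the NC libraries, with M-BSG highest. The MXD1 log2 fold change against NC was 0.40 (SE 0.101, adjusted p = 0.0215, edgeR) in BSG and 0.58 (SE 0.101, adjusted p = 0.00293) in M-BSG. In M-BSG-Hot it was 0.22 (SE 0.101, adjusted p = 0.293), which did not pass. It passed there under 1 of the 23 other settings, the length trend removed (0.31, adjusted p = 0.0292). The M-BSG call held under all 23 other settings. The BSG call was lost with library sizes alone as scaling (0.32, adjusted p = 0.0780), and without BSG 2 (0.0527), BSG 3 (0.0721), NC 1 (0.0916) or NC 2 (0.0722). M-BSG-Hot was below M-BSG by a log2 difference of -0.36 (SE 0.1001, adjusted p = 0.171), and passed once BSG 1, M-BSG 1 and M-BSG-Hot 3 were all dropped (-0.39, adjusted p = 0.0360). The 2 groups did not overlap, but the share of all genes without overlap was not counted there. MXD1 was thus highest in M-BSG, where MYC was lowest of the 3 groups outside NC, but neither the MXD1 nor the MYC step between M-BSG and another of these groups passed the threshold.

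MNT, the broadly expressed antagonist of MYC, moved in the opposite direction and was lower in BSG than in NC. Its level was 33.0, 35.0 and 33.7 CPM in NC, 20.1, 23.8 and 22.3 CPM in BSG, 22.3, 29.4 and 27.9 CPM in M-BSG, and 24.7, 26.4 and 27.8 CPM in M-BSG-Hot. Every library outside NC lay below every NC library. The MNT log2 fold change against NC was -0.62 (SE 0.104, adjusted p = 0.00167, edgeR) in BSG, a level 0.652 times that of NC, and this call held under all 23 other settings. It was -0.35 (SE 0.104, adjusted p = 0.0623) in M-BSG and -0.37 (SE 0.104, adjusted p = 0.0610) in M-BSG-Hot, which did not pass. Each of these 2 values passed under 8 of the 23 other settings, including the fits without BSG 1, without M-BSG 2 (for M-BSG) and without M-BSG 1 (for M-BSG-Hot). Without M-BSG 1, the lowest of its group, the MNT value in M-BSG was -0.23. MNT has the longest gene model of the 8, at 9179 bases against 2522 to 5549 for the others, and BSG 1 and M-BSG 1, the libraries low in long genes, were the lowest MNT libraries of their groups, while M-BSG-Hot 3 was the highest of its group. With the length trend removed, the MNT log2 fold change was -0.43 (adjusted p = 0.00245) in BSG, -0.30 (0.0308) in M-BSG and -0.25 (0.0701) in M-BSG-Hot. With those 2 libraries and M-BSG-Hot 3 dropped together, all 3 comparisons passed, at -0.56, -0.25 and -0.41.

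None of the remaining antagonists, nor MLX, was called in any comparison. MXI1, a SIN3-recruiting MAX partner once named MXD2, averaged 32.8 ± 1.33 CPM in NC, 29.8 ± 3.51 in BSG, 30.8 ± 1.50 in M-BSG and 29.1 ± 2.44 in M-BSG-Hot (SD, n = 3). MXD4 averaged between 10.5 and 11.8 CPM in the 4 groups, and MXD3, an antagonist expressed in dividing cells, between 5.07 and 5.95 CPM. MLX averaged 45.7 ± 1.15 CPM in NC, 49.8 ± 2.86 in BSG, 46.6 ± 1.50 in M-BSG and 49.6 ± 1.34 in M-BSG-Hot. The MLX libraries of BSG and of M-BSG-Hot all lay above those of NC, but the log2 fold change was 0.12 in both comparisons (adjusted p = 0.245 and 0.416, edgeR). Over these 4 genes and MAX, log2 fold changes in the 6 comparisons ran from -0.23 to 0.16, and the smallest adjusted p was 0.245.

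Counted over the network, 3 of the 8 genes were called in BSG against NC (MYC and MXD1 higher, MNT lower), where 11.7% of all genes tested were called, 5.50% higher and 6.22% lower. In M-BSG against NC, 2 of 8 were called (MYC and MXD1, both higher), beside 6.35% of all genes, 3.22% higher and 3.13% lower. In M-BSG-Hot against NC, MYC alone was called, higher, beside 4.91% of all genes, 1.40% higher and 3.51% lower. No overlap with the NC libraries was seen for 4 of the 8 genes in BSG and in M-BSG-Hot (MYC, MXD1, MNT and MLX) and for 3 in M-BSG (the same without MLX). Over all genes tested, 38.7% did not overlap with NC in BSG, 27.5% in M-BSG and 28.0% in M-BSG-Hot. The median log2 fold change of the 8 genes was 0.05, 0.03 and 0.04, beside -0.02, -0.01 and 0.00 over all genes tested in the same order.

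Between the groups outside NC, edgeR called none of the 8 genes. In M-BSG against BSG, where 0.130% of all genes were called, 2 of the 8 had an unadjusted p under 0.05 (MYC and MNT), DESeq2 called 1 and limma-voom called 0. In M-BSG-Hot against BSG, with 0.850% of all genes called, 1 of the 8 had an unadjusted p under 0.05 (MNT), and DESeq2 and limma-voom each called 0. In M-BSG-Hot against M-BSG, with 0.694% of all genes called, 2 had an unadjusted p under 0.05 (MYC and MXD1), DESeq2 called 1 and limma-voom called 0.

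**Figure D2:**
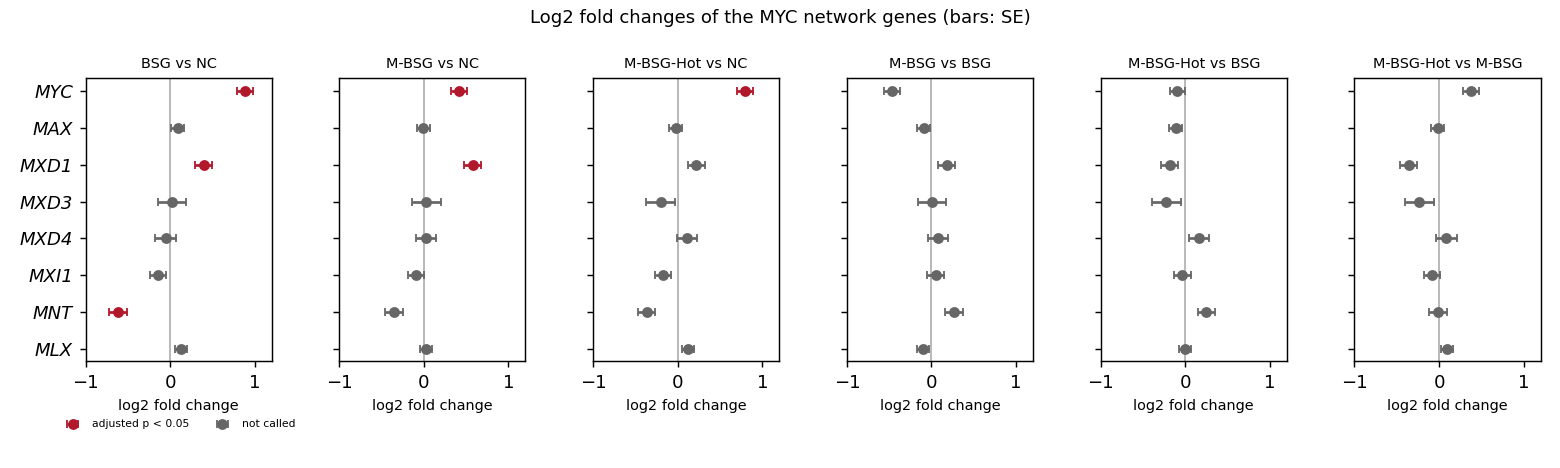
Log2 fold changes of the 8 genes (horizontal axis, points with SE bars) in the 6 comparisons, the first group named over the second. Red points passed an adjusted p of 0.05 in edgeR. MYC passed in all 3 comparisons with NC (0.89, 0.42 and 0.80), MXD1 in the first 2 (0.40 and 0.58) and MNT in the first (-0.62), and no gene passed in the 3 comparisons between the groups outside NC.

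The opposite directions of MYC and MNT gave the widest contrast in the relative levels within a library. The ratio of MYC to MNT FPKM, both per length and from the same library, was 1.60 to 1.89 in NC, 4.53 to 5.37 in BSG, 2.49 to 3.58 in M-BSG and 3.70 to 4.11 in M-BSG-Hot. The 4 groups did not overlap in this ratio, with means of 1.72 ± 0.152, 4.90 ± 0.427, 2.98 ± 0.555 and 3.84 ± 0.233 (SD, n = 3). This contrast restates the opposite changes of the 2 genes and adds no support to them. FPKM does not remove the length trend, and MNT has 9179 bases against 4518 for MYC. In each group outside NC the highest ratio was in the library low in long genes: 5.37 in BSG 1, 3.58 in M-BSG 1 and 4.11 in M-BSG-Hot 3. The ratio of MYC to MXD1 FPKM was 1.40 to 1.88 in NC and 1.32 to 1.56 in M-BSG, which overlapped. It was 1.95 to 2.54 in BSG and 2.15 to 2.76 in M-BSG-Hot, above both. Against the summed FPKM of the 5 antagonists MXD1, MXD3, MXD4, MXI1 and MNT, MYC stood at a ratio of 0.300 ± 0.0305 in NC, 0.580 ± 0.0581 in BSG, 0.386 ± 0.0119 in M-BSG and 0.551 ± 0.0502 in M-BSG-Hot (SD, n = 3). The sum itself was 21.9 ± 1.08 FPKM in NC, 19.9 ± 0.633 in BSG, 21.8 ± 0.458 in M-BSG and 19.7 ± 0.805 in M-BSG-Hot. A ratio shows unequal change of its 2 transcripts and says nothing of their proteins, and no test was run on these ratios.

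**Figure D3:**
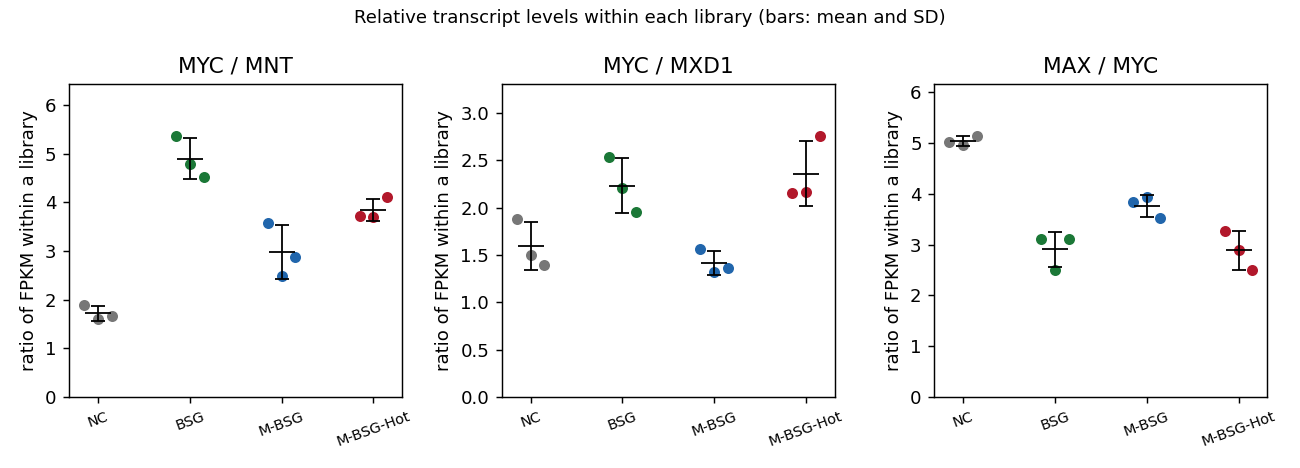
Ratios of FPKM within each library for MYC over MNT, MYC over MXD1 and MAX over MYC (linear axes from 0), with points for the 3 libraries of a group and bars for the mean and SD. MYC over MNT separates all 4 groups, from at most 1.89 in NC to at least 4.53 in BSG. Its highest point in each group outside NC is the library low in long genes. MYC over MXD1 overlaps between NC and M-BSG, and MAX over MYC is highest in NC at 4.96 to 5.14.

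Across the 12 libraries, the log2 CPM of MYC had a Pearson r of -0.80 with MNT and 0.72 with MLX, and MNT had an r of -0.72 with MLX. MYC had an r of 0.38 with MXD1 and 0.23 with MAX. These are descriptions over libraries that fall into 4 groups and share the NC contrast, so they largely restate the group means.

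Because members of this network bind the E-box CACGTG, their own promoters were searched for it in the 250 bases before the transcription start, in RefSeq sequence of GRCh38.p14. The word reads the same on both strands, and no other motif was searched. A window was matched for 7 of the 8 genes, all but MYC. Of these 7, 3 held the box (42.9%): MNT, with its first base 193 bases before the start, MXD4 at 238 and MLX at 50. Over all symbols with a window, 7.73% of 27305 held it. MXD1 and MNT are shown in full because they are the antagonists with a called change, 1 without and 1 with the box. For MXD4 and MLX, only the stretch around the box is shown. The box is in capitals, and each sequence reads 5′ to 3′ on the strand of its gene.
MXD1 (chr2:69914859-69915108, + strand): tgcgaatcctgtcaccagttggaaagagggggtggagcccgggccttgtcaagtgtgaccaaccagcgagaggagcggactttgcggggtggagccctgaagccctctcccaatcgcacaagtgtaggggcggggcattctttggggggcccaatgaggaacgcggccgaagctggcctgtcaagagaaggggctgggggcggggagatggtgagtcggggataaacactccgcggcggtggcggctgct
MNT (chr17:2401061-2401310, - strand): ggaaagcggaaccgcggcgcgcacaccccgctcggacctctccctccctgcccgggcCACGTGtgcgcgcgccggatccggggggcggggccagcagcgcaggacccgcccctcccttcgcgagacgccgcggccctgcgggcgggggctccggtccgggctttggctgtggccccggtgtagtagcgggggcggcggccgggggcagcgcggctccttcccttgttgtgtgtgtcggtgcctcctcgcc
MXD4 (chr4:2262322-2262359, - strand): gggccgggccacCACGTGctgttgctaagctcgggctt
MLX (chr17:42567030-42567075, + strand): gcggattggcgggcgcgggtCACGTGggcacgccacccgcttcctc
The 3 genes with the box took different courses: MNT was lower in BSG, while MXD4 and MLX were not called in any comparison. A match here is a match of letters and does not show binding.

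Other factors of the extended network were less abundant or did not pass the test. Of the 5 listed (MYCN, MYCL, MGA, MLXIP and MLXIPL), edgeR called none in any comparison with NC. In BSG, 2 had an unadjusted p under 0.05, 1 higher and 1 lower, DESeq2 called 1 and limma-voom called 0. In M-BSG these counts were 0, 0 and 0, and in M-BSG-Hot 1 (MLXIPL, lower), 0 and 0. MGA, a large MAX partner and repressor, averaged 98.5 ± 13.4 CPM in NC and 63.0 ± 19.4 in BSG (log2 fold change -0.64, adjusted p = 0.0740), with 40.6 CPM in BSG 1. MYCN, the paralog of MYC that drives neuroblastoma, stayed at or below 0.644 CPM in every library. PVT1, the long noncoding neighbour of MYC, averaged 10.6 ± 1.16 CPM in NC, 13.4 ± 0.614 in BSG, 11.4 ± 0.458 in M-BSG and 9.17 ± 1.55 in M-BSG-Hot. In BSG, edgeR did not call PVT1 (0.33, unadjusted p = 0.0185, adjusted p = 0.0943), nor did limma-voom, but DESeq2 called it higher. In M-BSG-Hot, where MYC was called higher, the PVT1 log2 fold change was -0.21 (adjusted p = 0.429).

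Of the partners of these factors, SAP18 and ZBTB17 were called against NC. Of 11 genes of the SIN3 corepressor that the antagonists recruit, 1 was called in BSG, SAP18, a SIN3-associated protein, at 153 ± 10.5 CPM in NC and 227 ± 32.4 in BSG (0.57, adjusted p = 0.00509), where 11.7% of all genes were called, and 0 in M-BSG and in M-BSG-Hot. For each of those zeros, 2 of the 11 had an unadjusted p under 0.05 in edgeR, DESeq2 called 1 and limma-voom called 0. Of 14 MYC cofactors, edgeR called 0 in BSG (4 at an unadjusted p under 0.05, 1 by DESeq2, 0 by limma-voom) and 0 in M-BSG (0, 0 and 0). In M-BSG-Hot it called ZBTB17, the zinc finger factor through which MYC represses genes, at 0.29 (adjusted p = 0.0395), where 4.91% of all genes were called. This was a call that held under 12 of the 23 other settings and was lost with the replicate block, library size only or no count filter, and without BSG 2, M-BSG 2, M-BSG 3, M-BSG-Hot 1, M-BSG-Hot 3 or any 1 NC library. The medians of the 11 corepressor genes were -0.04, 0.05 and 0.09 and those of the 14 cofactors 0.02, 0.02 and 0.09, each in the order BSG, then M-BSG, then M-BSG-Hot.

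Among 17 genes that control the stability of MYC protein, AURKA and SKP2 were called, 2 in BSG, 2 in M-BSG and 1 in M-BSG-Hot. Over all genes tested, 11.7%, 6.35% and 4.91% were called in the same order, so the BSG count is near that share. AURKA, a kinase that shields MYC family proteins from degradation, was higher by 0.38 (adjusted p = 0.00774) in BSG and 0.31 (adjusted p = 0.0343) in M-BSG. SKP2, a ubiquitin ligase subunit that targets MYC, averaged 98.3 ± 3.13 CPM in NC and was lower by -0.35 (adjusted p = 0.0241) in BSG, -0.40 (adjusted p = 0.0146) in M-BSG and -0.40 (adjusted p = 0.0185) in M-BSG-Hot. The SKP2 calls were lost without any 1 NC library in BSG and M-BSG-Hot, without NC 1 or NC 3 in M-BSG, and without BSG 1, BSG 3, M-BSG 3, M-BSG-Hot 2 or M-BSG-Hot 3 in their own comparisons. The AURKA call was lost without NC 3 in BSG, and without any 1 NC library, M-BSG 1, M-BSG 2 or BSG 3, or with library size only, in M-BSG. The list's median log2 fold change was -0.07, -0.04 and 0.04, beside -0.02, -0.01 and 0.00 over all genes tested.

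Genes of ribosome biogenesis, a textbook MYC target class, were partly higher in BSG and M-BSG. Of 35 such genes, 10 were higher and 1 lower in BSG, 8 were higher and 1 lower in M-BSG, and 0 were called in M-BSG-Hot. Over all genes tested, 5.50%, 3.22% and 1.40% were called higher in the same order. In M-BSG-Hot, 7 of the 35 had an unadjusted p under 0.05, all higher, DESeq2 called 1 and limma-voom called 0. The list's median log2 fold change was 0.17 in BSG, 0.10 in M-BSG and 0.08 in M-BSG-Hot, beside -0.02, -0.01 and 0.00 over all genes tested. Like the other lists here, it was chosen with earlier results of these data known, so its counts and medians are a description only. NOP58 and NOP56, core proteins of the snoRNPs that methylate ribosomal RNA, were higher in BSG by 0.54 (adjusted p = 0.00144) and 0.53 (adjusted p = 0.00151). GNL3, a nucleolar GTPase, was higher by 0.45 (adjusted p = 0.00147), and NOP2, a ribosomal RNA methyltransferase, by 0.35 (adjusted p = 0.00419). In M-BSG, GNL3 was higher by 0.35 (adjusted p = 0.0116), NOP2 by 0.31 (adjusted p = 0.0122) and NOP58 by 0.41 (adjusted p = 0.0143). The gene that was lower in both groups was MYBBP1A, a nucleolar repressor of ribosomal DNA transcription, at -0.23 (adjusted p = 0.0418) in BSG, where it was named after its value was seen and held under 10 of the 23 other settings, not under RLE or upper quartile scaling, and -0.30 (adjusted p = 0.0145) in M-BSG.

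These counts depended on single libraries. Without any 1 NC library, 5 ribosome biogenesis genes were higher in BSG. In M-BSG the count fell to 1 on dropping NC 1 or NC 3, to 0 on dropping NC 2, to 3 on dropping M-BSG 1 and to 2 on dropping M-BSG 3. In M-BSG-Hot, 4 were higher with the length trend removed and 2 with the 3 libraries low in long genes dropped. The 4 genes named for BSG were called there under all 23 other settings. The share of ribosomal protein genes was 7.78% to 8.44% in NC, 8.45% to 11.4% in BSG, 7.58% to 10.0% in M-BSG and 7.67% to 9.92% in M-BSG-Hot, and its part in these counts was not tested. Between BSG and M-BSG-Hot, GNL3 was lower in M-BSG-Hot by a log2 difference of -0.35 (adjusted p = 0.0441), a call held under 8 of 23 other settings. It was lost with the replicate block, only the 2 groups compared, no count filter or upper quartile scaling, and without any 1 of the libraries NC 1, NC 2, NC 3, BSG 1, BSG 2, BSG 3, M-BSG 2, M-BSG 3 and the 3 of M-BSG-Hot. Of the 35 genes, 26 had a promoter window, and 2 of them (7.69%) held CACGTG, beside 7.73% of all symbols. Of the 10 called higher in BSG, 8 had a window and 0 of these held it.

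**Figure D4:**
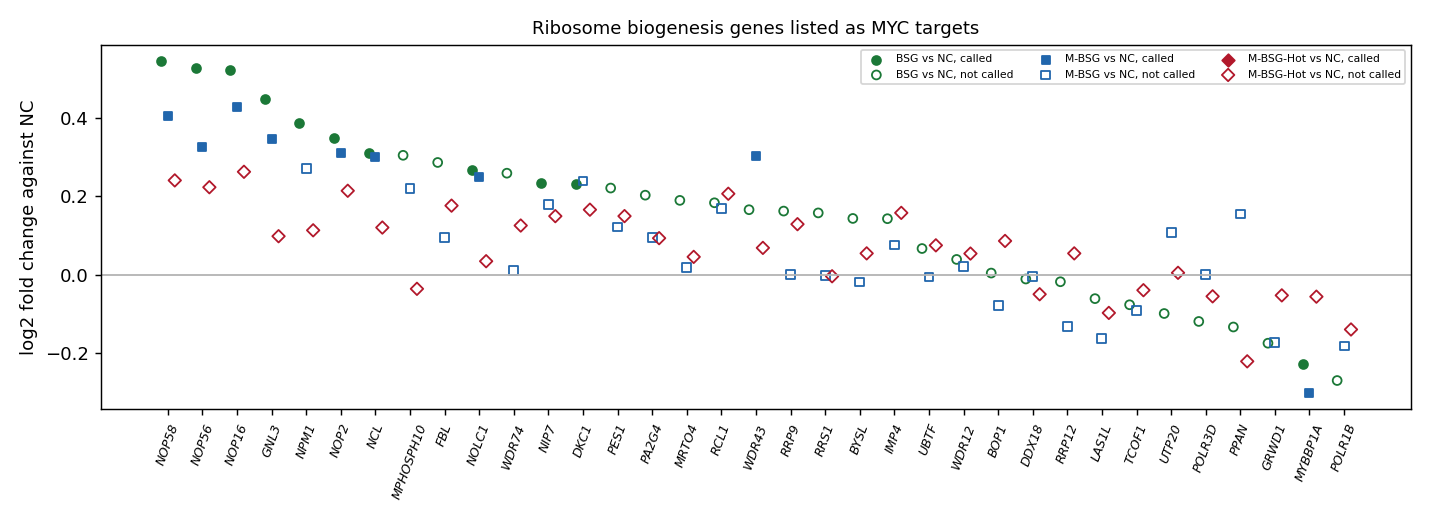
Log2 fold changes against NC (vertical axis) of the 35 ribosome biogenesis genes, ordered by their value in BSG. Filled symbols passed an adjusted p of 0.05 in edgeR, open symbols did not. In BSG (circles) 10 genes were called higher and MYBBP1A lower, in M-BSG (squares) 8 higher and MYBBP1A lower, and in M-BSG-Hot (diamonds) none was called.

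Genes of nucleotide and polyamine synthesis, another MYC target class, held no gene called higher. In BSG, 3 of the 22 were higher at an unadjusted p under 0.05, DESeq2 called 2 of them higher and limma-voom 0. In M-BSG these counts were 0, 0 and 0. Of the 22, the only called gene in BSG was CAD, the first enzymes of pyrimidine synthesis, lower by -0.53 (adjusted p = 0.0205), and in M-BSG it was DHODH, a later enzyme of the same pathway, lower by -0.42 (adjusted p = 0.0325). The CAD value in M-BSG was -0.46 (adjusted p = 0.0538, edgeR), just short of the threshold. DESeq2 and limma-voom each called 2 of the 22 lower in M-BSG. In M-BSG-Hot the CAD value was -0.14 (adjusted p = 0.312, edgeR). In M-BSG-Hot edgeR called 0, with 2 genes at an unadjusted p under 0.05 (1 higher, 1 lower), and DESeq2 and limma-voom each called 0. Over all genes tested, 11.7%, 6.35% and 4.91% were called in BSG, M-BSG and M-BSG-Hot, so 1 of 22 in BSG is below that share. The CAD call was lost without BSG 1 or any 1 NC library, and the DHODH call with the length trend removed and without M-BSG-Hot 2 or any 1 library of M-BSG or NC. The median of the 22 genes was -0.01, -0.04 and 0.00, beside -0.02, -0.01 and 0.00 over all genes tested. In metabolism and translation, 15 genes were tested (EIF4A1 was not analysed here), and HSPD1 (0.28, adjusted p = 0.0264) and HSPE1 (0.68, adjusted p = 0.0359), the mitochondrial chaperonin pair, were higher in BSG. Their levels lay far apart. HSPD1 averaged 800 ± 8.87 CPM in NC and 971 ± 68.2 in BSG, and HSPE1 9.48 ± 0.504 and 15.2 ± 4.63 (SD). PPRC1, a coactivator of mitochondrial gene expression, was higher in M-BSG (0.47, adjusted p = 0.0145). These counts, 2 of 15 in BSG and 1 of 15 in M-BSG, lie near the 11.7% and 6.35% called over all genes. In M-BSG-Hot edgeR called 0 of these 15, with 1 at an unadjusted p under 0.05, and DESeq2 and limma-voom each called 0. Both BSG calls were lost without BSG 1 or any 1 NC library, HSPD1 also without BSG 3 and HSPE1 with only the 2 groups compared, and the PPRC1 call without M-BSG 2, M-BSG 3 or any 1 NC library and with library size only. The list's medians were 0.08, 0.05 and 0.05, beside the same medians over all genes tested.

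Of 13 cell-cycle genes listed as MYC targets, 4 were higher in BSG, 3 in M-BSG and 1 in M-BSG-Hot, and edgeR called none lower. Over all genes tested, 5.50%, 3.22% and 1.40% were called higher in the same order. Called lower were 6.22%, 3.13% and 3.51%, so a list of 13 with none lower is not far from those shares. The list was chosen with earlier results of these data known, and its 1 call in M-BSG-Hot was ID2. Its counts are therefore a description only. At an unadjusted p under 0.05, 3, 2 and 2 of the 13 were lower, of which DESeq2 called 2, 0 and 0 and limma-voom 1, 0 and 0. ID2, a helix-loop-helix inhibitor of differentiation factors, had by far the widest change of the list. It rose from 1.42 ± 0.321 CPM in NC to 43.5 ± 5.40 in BSG, 19.8 ± 3.20 in M-BSG and 39.1 ± 4.93 in M-BSG-Hot (SD, n = 3). The ID2 log2 fold change was 4.93 (adjusted p = 1.93e-09), 3.79 (adjusted p = 3.26e-08) and 4.78 (adjusted p = 3.75e-09). ID2 was also lower in M-BSG than in BSG by -1.14 (adjusted p = 0.00471) and higher in M-BSG-Hot than in M-BSG by 0.98 (adjusted p = 0.00749), 2 calls lost only without M-BSG 3 among the 23 settings. CCNE1, the cyclin of the G1 to S transition, was higher in BSG by 0.53 (adjusted p = 0.00250) and lower in M-BSG-Hot than in BSG by -0.45 (adjusted p = 0.0428), the latter call held under 9 of 23 other settings. It was lost with the replicate block, the length trend removed, no count filter or only the 2 groups compared, and without NC 2, NC 3, M-BSG 2, M-BSG 3 or any 1 library of BSG or M-BSG-Hot. CKS2, a cyclin-dependent kinase subunit, was higher in BSG (0.42, adjusted p = 0.0207) and M-BSG (0.42, adjusted p = 0.0307). The BSG value of CKS2 was 0.26 with the length trend removed, and its call was lost without BSG 1, NC 2 or NC 3, and the M-BSG call without NC 2, NC 3 or any 1 M-BSG library. CDC25A, the phosphatase that activates cyclin-dependent kinases, was higher in M-BSG (0.31, adjusted p = 0.0203), and CUL1, a ubiquitin ligase scaffold, in BSG (0.25, adjusted p = 0.0493). The CUL1 call held under 10 of the 23 other settings, not with the replicate block, and the CDC25A call under 16, while CCNE1 and ID2 were called in BSG under all 23. The count for BSG was 2 without NC 2 or NC 3, and the count for M-BSG was 1 without M-BSG 2, M-BSG 3, NC 2 or NC 3. The list's medians were 0.13, 0.05 and 0.08, beside -0.02, -0.01 and 0.00 over all genes tested.

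Of the genes that MYC is known to repress, 9 were tested (CDKN2B was not analysed here). Of these, 3 were higher in BSG, 3 were higher and 1 lower in M-BSG, and 2 were higher in M-BSG-Hot, beside 5.50%, 3.22% and 1.40% of all genes called higher. This list too was chosen with earlier results of these data known. CDKN1A, which encodes the cyclin-dependent kinase inhibitor p21, averaged 95.3 ± 6.29 CPM in NC and was higher by 0.66 (adjusted p = 0.000835) in BSG and 0.64 (adjusted p = 0.00134) in M-BSG. GADD45A, a stress-response gene, was higher by 0.74 (adjusted p = 0.000653), 0.45 (adjusted p = 0.0237) and 0.56 (adjusted p = 0.00853) in BSG, in M-BSG and then in M-BSG-Hot. GADD45G, its relative, rose from a mean of 0.116 CPM in NC to 5.82 ± 1.32 in BSG, 1.92 ± 0.116 in M-BSG and 3.71 ± 0.705 in M-BSG-Hot (adjusted p = 4.17e-08, 5.93e-06 and 4.63e-07). At its NC level GADD45G was too low for the count filter, so it was tested only because other groups were high. Its place in the counts above is therefore no support for them. With the filter at 1 CPM it was not tested, and the list's count of higher genes in M-BSG-Hot was 1. GADD45G was lower in M-BSG than in BSG by -1.60 (adjusted p = 0.00471), a call lost without M-BSG 3. CDKN1B, which encodes p27 and is a protein target of SKP2, was lower in M-BSG by -0.40 (adjusted p = 0.0252), a call lost without M-BSG 2, M-BSG 3 or any 1 NC library. The CDKN1B value was -0.30 (adjusted p = 0.0609, edgeR) in BSG and -0.35 (adjusted p = 0.0593) in M-BSG-Hot, which did not pass. Under DESeq2 and under the replicate block, 1 gene of this list was called lower in each of these 2 groups. The GADD45A call in M-BSG was lost without M-BSG 1, M-BSG 2 or any 1 NC library. The list's medians were 0.24, 0.35 and 0.27, beside -0.02, -0.01 and 0.00 over all genes.

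On the MLX side, the glucose-responsive genes TXNIP and ARRDC4, known targets of the Mondo and MLX dimers, were not called in edgeR in any comparison with NC. TXNIP averaged 39.3 ± 1.98 CPM in NC, 29.9 ± 1.63 in BSG, 25.3 ± 6.04 in M-BSG and 31.1 ± 10.2 in M-BSG-Hot. In M-BSG the TXNIP log2 fold change was -0.64 (adjusted p = 0.0907). Of the pair, TXNIP had an unadjusted p under 0.05 there and ARRDC4 did not, DESeq2 called TXNIP, and limma-voom called neither. In BSG and M-BSG-Hot the count was 0 by all 3 measures.

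The genes whose levels ran most like MYC were found by Pearson r of log2 CPM over the 12 libraries among the 10885 genes that averaged 5 CPM or more, as a description with no test. The 5 highest were KLF4, a stem-cell and stress-responsive factor (r = 0.98), HSPA1A, the inducible HSP70 chaperone (0.97), HEXIM1, an inhibitor of the elongation factor P-TEFb (0.96), H2BC21, a histone H2B gene (0.95), and CITED2, a CBP and p300 binding protein (0.95). HEXIM1 averaged 41.2, 130 and 85.7 CPM in NC, BSG and M-BSG and 109 CPM in M-BSG-Hot, the same order of groups as MYC. KLF4 averaged 24.1, 56.5, 38.7 and 47.8 CPM and HSPA1A 10.6, 32.4, 18.4 and 23.2 CPM in the same order of groups. HSPA1A has a near-identical copy, and the sources used here do not say how reads shared between copies were counted. The 5 lowest were PTCD2 (r = -0.97), TFDP2 (-0.96), ZNF891 (-0.94), SLC25A37, an iron importer of mitochondria (-0.94), and ZNF512 (-0.94). PTCD2, a mitochondrial RNA-processing factor, averaged 30.3, 19.8, 23.7 and 20.4 CPM.

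After MYC, MNT had the widest range of group means, 0.62 on the log2 CPM scale against 0.58 for MXD1 and 0.11 to 0.23 for the other 5. Genes most like MNT were IGF2, a growth factor (r = 0.97), NAPB (0.97), LOC101927060 (0.97), AKT2, a kinase of insulin signalling (0.96), and ZNF646 (0.95). Those with the lowest r were FNTA, a farnesyltransferase subunit (-0.98), SPATS2L (-0.97), HHEX (-0.97), UBE2D2 (-0.96) and RAE1 (-0.96). IGF2 averaged 128, 86.3, 98.1 and 99.7 CPM in the same order of groups, and FNTA 83.4, 100, 93.2 and 93.4 CPM.

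Exons of most of these genes share bases with another gene in GENCODE 29, and no source used here gives the strand setting of the counting. MXD1 overlaps SNRNP27 and MXD3 overlaps RAB24 on the same strand, and MXD4 hosts MIR4800. On the opposite strand, MAX overlaps AL139022.1, MXD3 overlaps PRELID1, MXI1 overlaps AL360182.2, MNT overlaps AC006435.1 and MLX overlaps PSMC3IP. MYC overlaps none. How reads in the shared bases were assigned was not tested, so the counts of the 7 genes other than MYC could hold some reads of these neighbours.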

How the data were processed

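Per the labels' protocols, 143B RNA was turned into libraries with the SMARTER mRNA-Seq Library Prep Kit. For each of the 12 libraries the authors deposited read counts per gene symbol and FPKM. The deposited FPKM equalled the count divided by gene length and library total for 100% of values above 0 (relative tolerance 1e-06), which gave the gene lengths. For the aligner and the counter, no name is given in any source used here. Builds GRCm38 and mm10, both mouse, are listed in the submitters' processing notes, but the symbols in the tables are human, and no coordinate was taken from those builds. Promoter sequence came from RefSeq GRCh38.p14 and overlaps from GENCODE 29.

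Counts were tested in edgeR 4.0.16 (R 4.3.3): filterByExpr with a minimum count of 10 left 15407 genes, TMM scaling factors ran from 0.951 to 1.05, and a quasi-likelihood model with 1 mean per group was fitted to all 12 libraries, with Benjamini-Hochberg adjustment over all genes and a threshold of 0.05. Each SE is the size of the log2 fold change over the square root of its F value. CPM are TMM-scaled. Total counts per library were 34434993 to 38163152, and the common biological coefficient of variation was 0.117. The test was checked on simulated data. Those counts were drawn independently per gene and library, without the length trend described above, so the check does not cover that trend. All pairs of replicates differed by more than sampling noise, and each library was counted once. That spread may be technical and does not show that the libraries were separate cultures.

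The network genes and the gene lists were chosen with earlier results of these data known. Named were all 8 network genes, up to 4 called genes with the smallest adjusted p per list and comparison, and the 5 genes with the highest and lowest r to MYC and MNT. The 23 other settings were RLE or upper quartile scaling, library size only, no count filter, a filter at 1 CPM, a replicate block, DESeq2 1.42.0, limma-voom (limma 3.58.1), only the 2 groups compared, each of 12 libraries left out, 3 libraries left out together, and a removed gene length trend, which was added after seeing the data.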

Additional observations from a re-analysis of the deposited data

How the results depend on the processing

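MYC in BSG and in M-BSG-Hot, MXD1 in M-BSG and MNT in BSG, each against NC, kept their direction and their call under all 23 other settings. The number of the 8 network genes called in M-BSG-Hot against NC was 2 in place of 1 with 3 libraries left out together, DESeq2, the length trend removed, library size only, only the 2 groups compared, the replicate block or upper quartile scaling. The added gene was MXD1 with the length trend removed and MNT under the others. The number called was 1 in place of 0 for M-BSG against BSG and for M-BSG-Hot against M-BSG with 3 libraries left out together, DESeq2 or the length trend removed. Leaving out 1 library at a time gave 2 to 3 genes called in BSG, 1 to 3 in M-BSG and 1 to 2 in M-BSG-Hot against NC, 0 to 1 in M-BSG against BSG, and 0 to 0 in M-BSG-Hot against BSG and against M-BSG. The M-BSG count was 1 without M-BSG 3, NC 2 or NC 3, the M-BSG-Hot count was 2 without BSG 1 or M-BSG 1, and the M-BSG against BSG count was 1 without M-BSG-Hot 3. MNT between M-BSG-Hot and M-BSG, at -0.02, turned to 0.049 with the length trend removed and lay between -0.13 and 0.065 with 1 library left out, never called.

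Same-numbered replicates deviated together in 4 of 18 pairs at a correlation over 0.1 (range -0.287 to 0.408), so the numbers were not taken to pair libraries. With the replicate block, edgeR called 3 of the 8 genes in BSG, 3 in M-BSG and 2 in M-BSG-Hot, each against NC, MNT being added in M-BSG (adjusted p = 0.0249) and M-BSG-Hot (0.0264), and 0 in the other 3 comparisons. With library size only, the share of called genes that were higher fell from 46.9% to 29.9% in BSG, from 50.7% to 37.7% in M-BSG and from 28.4% to 18.1% in M-BSG-Hot. The least abundant of the 8 genes, MXD3, reached 4.51 CPM in its lowest library, where counting error is widest. The cause of these shifts was not tested.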
